A study of Mus musculus with 6 samples.

Results

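The genes described are 9 of the 27763 gene rows in the deposited table, chosen by their names: the phosphoinositide 3-kinase (PI3K) subunit genes Pik3cd, Pik3cg, Pik3r1 and Pik3r5, the PI3K adaptor and inhibitor genes Pik3ap1 and Pik3ip1, and the inositol phosphatase genes Inpp5d, Inpp4a and Inpp4b. Each name matched 1 row. Poly(A) RNA was sequenced from natural killer (NK) cells of the spleen, in 3 libraries labelled DN NK and 3 labelled cNK. Both groups came from wild-type C57BL/6 mice of 6 weeks, and no treatment is named. What DN and cNK stand for, which surface markers defined them and whether each library is a separate animal or pool are not given in the labels, and the p-values below therefore cover the spread from library to library, which may be technical. The series title speaks of a spleen-resident immature NK subset and of maturation that depends on T-bet, a T-box transcription factor.

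Class I PI3Ks phosphorylate a membrane lipid to make PIP3, which recruits kinases such as Akt to the membrane. In lymphocytes much of the class I activity below cytokine and activating receptors comes from p110δ, encoded by Pik3cd, held by a p85 regulatory subunit, while p110γ, encoded by Pik3cg, works below G protein-coupled receptors such as those for chemokines. SHIP-1 degrades PIP3, and the INPP4 enzymes degrade the lipid that SHIP-1 leaves.

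Compared with cNK, DN NK libraries held less RNA of Pik3r1, Pik3r5 and Pik3cg and more of Inpp4b, Pik3ip1, Inpp5d and Pik3ap1, while Pik3cd differed by less than the spread between libraries. The largest difference was that of Inpp4b, 11.3-fold higher in DN NK, and the largest fall that of Pik3r1, 1.84-fold lower. In all, 4 members were higher, 3 lower and 2 (Pik3cd and Inpp4a) not past an adjusted p of 0.05 by edgeR's quasi-likelihood test. Among all 11690 rows tested, 61.7% passed, 30.8% higher and 30.9% lower, so 7 of 9 is not far from the background. The FPKM ranges of the groups did not overlap for the same 7 genes, as for 70.3% of all tested rows. The median log2 fold change was 0.26 over the 9 genes and -0.02 over all tested rows, and the median size was 0.63 against 0.37. All 9 genes met the filter of at least 1 FPKM (fragments corrected for transcript length and sequencing depth) in at least 3 libraries. Inpp4b met it only through the DN NK libraries, so its place among the tested rows rests on its being high there. In these bulk libraries fewer cells that carry a transcript and less of it per cell cannot be told apart.

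The libraries were checked against markers of NK and other cells. All 17 rows of the 16 NK markers, among them Ncr1, Klrb1c, Eomes and Tbx21, stood above 1 FPKM on average in both groups, with a summed level of 3695 to 4237 FPKM in DN NK and 9846 to 10536 FPKM in cNK, and 15 of the 17 rows were lower in DN NK past the test. B cell markers summed to 176 to 236 FPKM in DN NK and 98.1 to 101 FPKM in cNK. Ighm alone made up most of both sums, at 126 to 170 FPKM in DN NK and 92.4 to 95.6 FPKM in cNK. All 16 B cell markers were higher in DN NK without overlap of the groups. Pax5 was at 1.82 to 3.16 FPKM in DN NK against 0.0322 to 0.0616 FPKM in cNK. T cell markers summed to 939 to 985 FPKM in DN NK and 695 to 707 FPKM in cNK, with 14 of 16 higher without overlap. Cd3d was at 37.7 to 39.4 FPKM in DN NK and 4.18 to 4.90 FPKM in cNK, Cd3g at 16.6 to 18.1 FPKM in DN NK and 3.24 to 3.48 FPKM in cNK, and Cd3e at 0.727 to 0.971 FPKM in DN NK and 0.00899 to 0.0465 FPKM in cNK. Cd4 stood at 3.18 to 3.72 FPKM in DN NK and 0 to 0.0388 FPKM in cNK. Of the 10 T cell markers that were tested, 9 were higher and 1 lower past the test. The lower one was Lef1, at 2.67 to 2.99 FPKM in DN NK and 5.20 to 5.39 FPKM in cNK. For 10 ILC1 and residency markers the sum was 239 to 244 FPKM in DN NK and 61.8 to 71.9 FPKM in cNK, with 10 of 10 higher. Of 11 monocyte, macrophage and neutrophil markers 1 averaged at least 1 FPKM in either group. They summed to 6.30 to 7.37 FPKM in DN NK and 6.50 to 7.36 FPKM in cNK, with 5 of 11 higher without overlap, and Csf3r, S100a8 and S100a9 were listed at 0 in all cNK libraries. Dendritic cell markers summed to 133 to 143 FPKM in DN NK and 184 to 197 FPKM in cNK, yet 4 of 6 were higher in DN NK without overlap. Itgax alone made up most of this sum, at 119 to 131 FPKM in DN NK and 182 to 195 FPKM in cNK. The ILC2 and ILC3 markers summed to 50.3 to 53.5 FPKM in DN NK and 89.0 to 104 FPKM in cNK, yet 8 of 11 were higher in DN NK without overlap. Klrg1 alone made up most of the cNK sum, at 23.8 to 28.1 FPKM in DN NK and 74.3 to 87.2 FPKM in cNK. Il22 and Ccr6 were listed at 0 in all cNK libraries. Il13 was listed at 0 in all DN NK libraries and at no more than 0.0230 FPKM in cNK. The part of any such cells in the results below was not tested. As background to these counts, the groups did not overlap in 70.3% of all tested rows, in either direction. By the test 30.8% of those rows were higher and 30.9% lower, and some of the markers lay below the filter.

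The sequence just before a start site is shown for 4 genes, because the study turns on a T-box factor: Inpp4b with the largest rise, Pik3r1 with the largest fall, and Inpp4a and Pik3cg, the members with a window that holds a match. For Pik3cg the second window, which holds it, is printed. Each is the 250 bases before a RefSeq start site on GRCm38.p6, 5′ to 3′ on the gene's strand, in lower case. Capitals mark matches to 4 strings searched on both strands: TCACACC (T-box), GTAAACA (forkhead), TGTGGT (Runx) and CCGGAA (Ets).
Inpp4b, chr8:81342312-81342561, plus strand: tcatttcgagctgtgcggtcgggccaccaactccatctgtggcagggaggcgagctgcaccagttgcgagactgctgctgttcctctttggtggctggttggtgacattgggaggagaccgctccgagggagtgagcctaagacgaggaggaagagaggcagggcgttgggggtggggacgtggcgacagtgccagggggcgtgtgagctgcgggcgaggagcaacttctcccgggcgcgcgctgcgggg
Inpp4a, chr1:37299588-37299837, plus strand: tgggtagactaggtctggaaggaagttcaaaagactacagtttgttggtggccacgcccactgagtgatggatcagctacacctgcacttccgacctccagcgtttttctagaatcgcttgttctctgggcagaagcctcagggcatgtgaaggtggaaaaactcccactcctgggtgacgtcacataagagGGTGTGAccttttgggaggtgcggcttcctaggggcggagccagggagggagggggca
Pik3r1, chr13:101768218-101768467, minus strand: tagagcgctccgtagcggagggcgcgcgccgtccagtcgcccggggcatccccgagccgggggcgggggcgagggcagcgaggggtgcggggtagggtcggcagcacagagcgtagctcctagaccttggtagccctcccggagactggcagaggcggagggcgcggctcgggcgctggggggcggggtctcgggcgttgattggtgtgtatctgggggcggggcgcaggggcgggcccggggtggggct
Pik3cg, chr12:32208471-32208720, minus strand: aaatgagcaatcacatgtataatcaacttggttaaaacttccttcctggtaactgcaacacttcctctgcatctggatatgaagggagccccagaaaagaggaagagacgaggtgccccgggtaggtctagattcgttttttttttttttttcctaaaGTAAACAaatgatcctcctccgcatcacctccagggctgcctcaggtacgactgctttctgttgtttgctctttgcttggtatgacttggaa
The T-box string lies 58 bases before the first Inpp4a start site, read on the opposite strand, and the forkhead string 92 bases before the second Pik3cg start site. These matches do not overlap. Over the 15 windows of the 9 genes no other match was found, except that a second, overlapping Inpp4a window holds the same T-box match. Among 32851 such windows of all genes, 3.33% hold the T-box string, 3.17% the forkhead, 14% the Runx and 12% the Ets string. The windows also differ in base composition: GC content is 76.4% before the first Pik3r1 start and 66.0% before Inpp4b, against 44% in the Pik3cg window shown and a median of 52.4% over all windows. A match is a description of letters in these windows.

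Of the catalytic subunit genes of the set, Pik3cd did not pass the test and Pik3cg fell. Pik3cd (chromosome 4, 149649168 to 149702571, minus strand, GRCm38) stood at 70.1, 73.8 and 66.9 FPKM in DN NK libraries 1, 2 and 3, against 66.9, 81.8 and 63.2 FPKM in cNK libraries 1, 2 and 3. The groups overlapped, and cNK 2 was the highest of the 6. The log2 fold change of 0.05 (SE 0.10, adjusted p = 0.644 by edgeR) came with a 95% interval from -0.17 to 0.28, so that a change between 0.889-fold and 1.21-fold is within the error. Pik3cg (chromosome 12, 32173473 to 32208659, minus strand) had 5.42, 5.84 and 6.24 FPKM in DN NK against 8.64, 10.4 and 9.20 FPKM in cNK. Every DN NK library lay below every cNK library, and the gene fell 1.55-fold (log2 fold change -0.63, SE 0.07, adjusted p = 0.000120 by edgeR). Among the 4 class I catalytic genes Pik3cd made up 76.9 ± 0.925% of the summed FPKM in DN NK and 73.4 ± 2.04% in cNK (SD, n = 3 each), whereas Pik3cg made up 6.39 ± 0.594% in DN NK and 9.81 ± 0.497% in cNK. In an exact permutation test both shares gave p = 0.10, the smallest that 3 against 3 libraries allow, and an adjusted p of 0.133 over the 8 shares computed. Pik3ca and Pik3cb, the widely expressed p110α and p110β genes, averaged 7.18 ± 0.166 and 8.13 ± 0.0464 FPKM in DN NK, against 6.71 ± 0.157 and 9.28 ± 0.265 FPKM in cNK (SD, n = 3 each). By edgeR Pik3ca was slightly higher in DN NK (log2 fold change 0.16, SE 0.05, adjusted p = 0.0216). Pik3cb was slightly lower (-0.13, SE 0.05, adjusted p = 0.0373), a call that changed with the settings, as given below.

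Both regulatory subunit genes of the set fell. Pik3r1 encodes p85α, which stabilises the class IA catalytic chains and brings them to phosphorylated tyrosines. Its level was 28.6, 31.8 and 32.1 FPKM in DN NK against 57.8, 56.4 and 63.0 FPKM in cNK. No DN NK library came near the lowest cNK library, and the gene fell by 0.88 on the log2 scale (SE 0.06, adjusted p = 6.76e-06 by edgeR). The gene spans 101680563 to 101768217 of chromosome 13, minus strand, and overlaps 2 low rows named Gm36638 on the same strand. Pik3r5 encodes p101, which couples p110γ to G protein subunits. It was at 39.5, 39.4 and 42.2 FPKM in DN NK against 66.9, 64.7 and 66.7 FPKM in cNK, and fell 1.57-fold (log2 fold change -0.65, SE 0.04, adjusted p = 6.79e-06 by edgeR). Within each group the 3 libraries of Pik3r5 spread by a CV of 4.05% in DN NK and 1.85% in cNK, far less than the gap between groups.

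Next to Pik3r5 on the plus strand of chromosome 11, where Pik3r5 spans 68432121 to 68497849, lies Pik3r6 from 68503019 to 68552698, the gene of the alternative p110γ partner p84. Pik3r6 went the other way, with 1.23, 1.09 and 1.21 FPKM in DN NK against 0.177, 0.240 and 0.171 FPKM in cNK. The groups did not overlap, the rise was 6.22-fold (log2 fold change 2.64, SE 0.19, adjusted p = 7.71e-06 by edgeR), and the row met the filter only through DN NK. Even so, Pik3r5 remained 97.2 ± 0.174% of the summed FPKM of the pair in DN NK, against 99.7 ± 0.0635% in cNK (SD, n = 3 each; exact permutation p = 0.10, the smallest possible, adjusted p = 0.133). Of the other class IA regulatory genes, Pik3r2 stood at 2.97 ± 0.228 FPKM in DN NK and 3.60 ± 0.257 FPKM in cNK (n = 3 each; adjusted p = 0.0668 by edgeR), and Pik3r3 lay below the filter at 0.300 ± 0.0379 FPKM in DN NK and 0.302 ± 0.0690 FPKM in cNK.

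**Figure D1:**
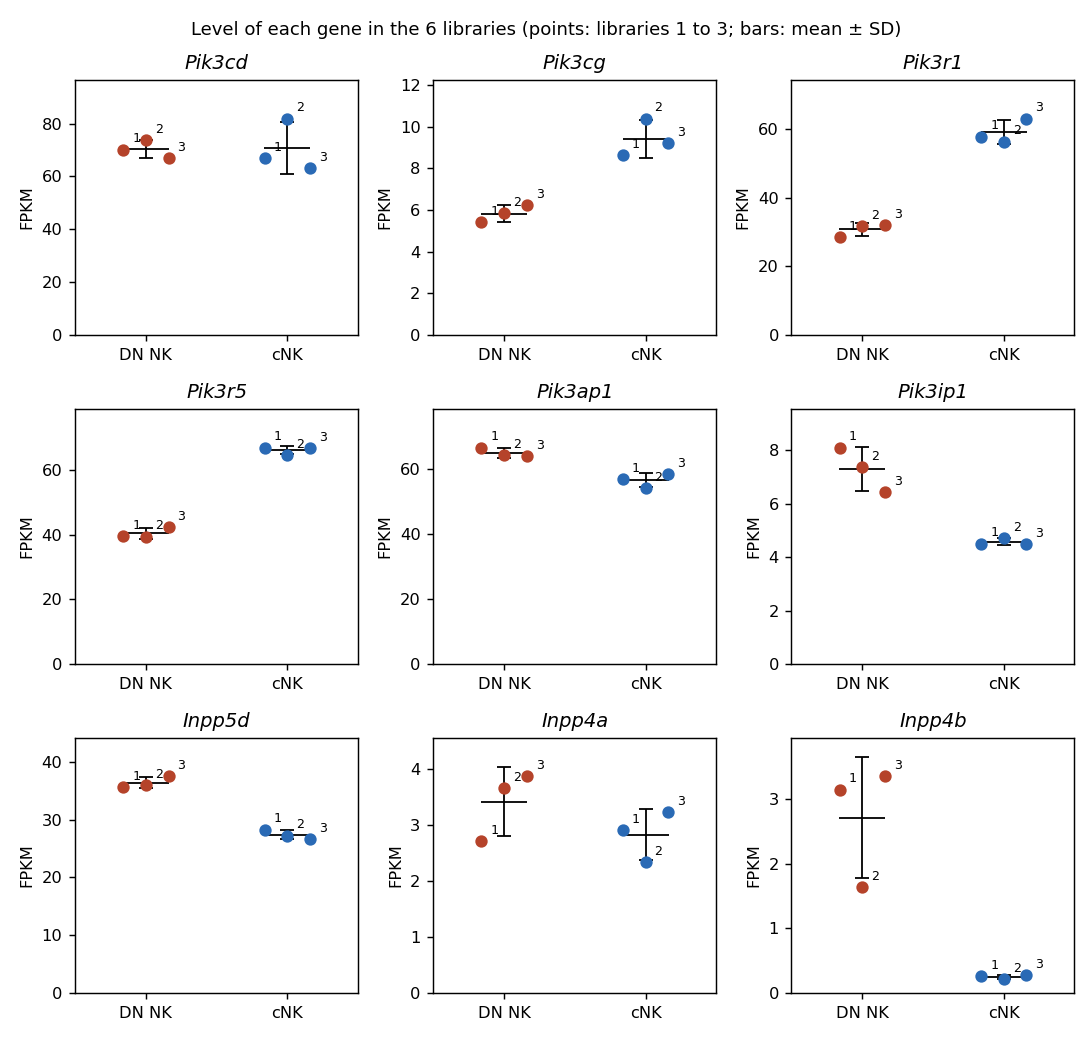
FPKM of each of the 9 genes in the 3 DN NK libraries (left, red) and the 3 cNK libraries (right, blue), numbered by library, with the mean and SD as black bars and each vertical axis starting at 0. Pik3r1, Pik3r5 and Pik3cg lie lower in every DN NK library, Inpp5d, Pik3ip1, Pik3ap1 and Inpp4b higher, while the groups overlap for Pik3cd and Inpp4a.

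**Figure D2:**
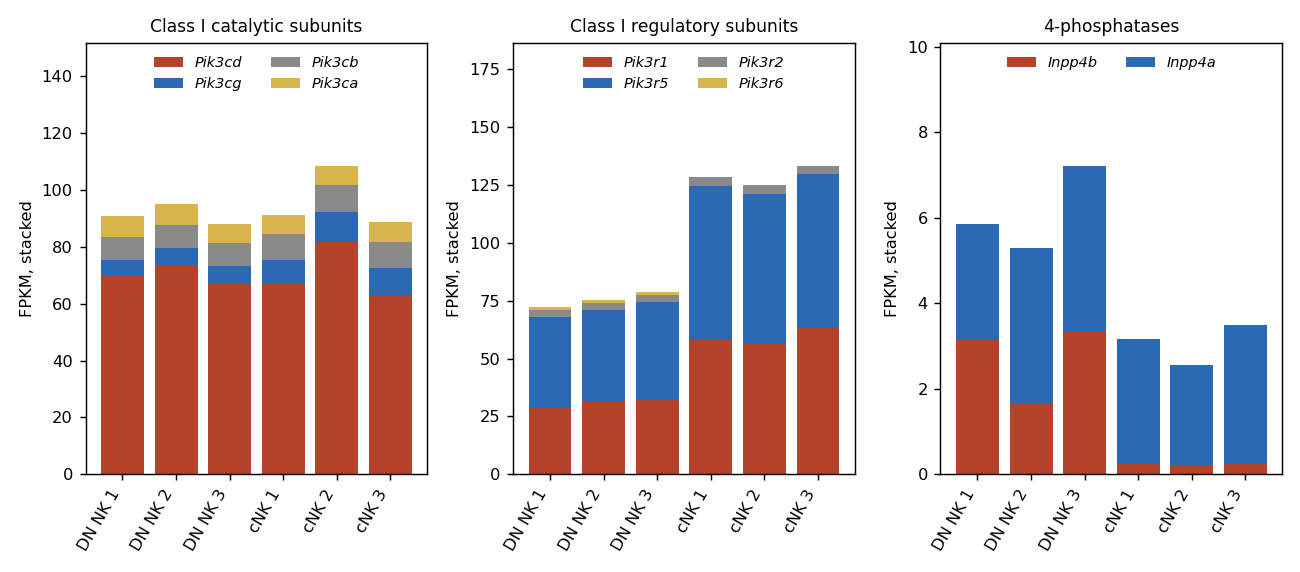
Stacked FPKM per library of the class I catalytic genes, the class I regulatory genes (Pik3r3, below 0.4 FPKM throughout, is left out) and the 4-phosphatases, with DN NK libraries left of cNK. The catalytic stacks overlap in height between the groups, the regulatory stacks are lower in DN NK through Pik3r1 and Pik3r5, and Inpp4b forms a larger part of the 4-phosphatase stack in the DN NK bars.

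Both genes that act on PI3K from outside the enzyme were higher in DN NK. Pik3ip1 encodes a transmembrane protein that binds the catalytic chain and restrains it. It was measured at 8.10, 7.38 and 6.44 FPKM in DN NK against 4.51, 4.72 and 4.49 FPKM in cNK, without overlap, a 1.67-fold rise (log2 fold change 0.74, SE 0.09, adjusted p = 0.000203 by edgeR). The gene spans 3330401 to 3342971 on the plus strand of chromosome 11, and its start overlaps the antisense row Gm12592, whose reads the unstranded library kit cannot separate. That row stood at 0.454 to 0.640 FPKM in DN NK and 0.298 to 0.370 FPKM in cNK. Pik3ap1 encodes BCAP, an adaptor that offers p85 its docking tyrosines and is abundant in B cells and myeloid cells. Its values were 66.5, 64.3 and 63.8 FPKM in DN NK against 56.9, 54.2 and 58.3 FPKM in cNK. The rise was the smallest of those past the test, at 1.20-fold (log2 fold change 0.26, SE 0.05, adjusted p = 0.00185 by edgeR). The B cell markers that rose alongside summed to 236, 189 and 176 FPKM in DN NK libraries 1, 2 and 3. In cNK they summed to 98.1 to 101 FPKM. Most of each sum was Ighm, at 170, 136 and 126 FPKM in DN NK and 92.4 to 95.6 FPKM in cNK. The part of B cells in the Pik3ap1 difference was not tested. Pik3ap1 occupies 41274218 to 41385070 of chromosome 19, minus strand.

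Of the phosphatase genes of the set, Inpp5d and Inpp4b were higher past the test, and Inpp4a was not past it. Inpp5d encodes SHIP-1, the haematopoietic 5-phosphatase that inhibitory NK receptors recruit, and occupies 87620312 to 87720507 of chromosome 1, plus strand. It had 35.7, 36.0 and 37.5 FPKM in DN NK against 28.2, 27.2 and 26.7 FPKM in cNK, a 1.38-fold rise without overlap (log2 fold change 0.47, SE 0.04, adjusted p = 3.80e-05 by edgeR). The monocyte, macrophage and neutrophil markers summed to 6.30 to 7.37 FPKM in DN NK and 6.50 to 7.36 FPKM in cNK. The B cell markers were higher in DN NK. SHIP-1 is also made by B and myeloid cells, whose part in the Inpp5d difference was not tested. Its widely expressed relative Inppl1, the SHIP-2 gene, fell by 0.41 on the log2 scale (SE 0.08, adjusted p = 0.00233 by edgeR), at 2.12 ± 0.144 FPKM in DN NK and 2.95 ± 0.120 FPKM in cNK (SD, n = 3 each). Inpp5d was thus 94.5 ± 0.233% of the summed FPKM of both SHIP genes in DN NK and 90.3 ± 0.138% in cNK (n = 3 each; exact permutation p = 0.10, the smallest possible).

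Inpp4b, the gene of a 4-phosphatase, spans 81342556 to 82127914 on the plus strand of chromosome 8. DN NK libraries 1, 2 and 3 held 3.14, 1.64 and 3.35 FPKM, against 0.260, 0.218 and 0.271 FPKM in cNK. Every DN NK library was above every cNK library, but DN NK 2 lay well below the other DN NK libraries, and the CV was 34.4% in DN NK against 11.2% in cNK, the widest of the 9 genes in DN NK. The estimated counts behind these values were 3884, 2007 and 4051 in DN NK and 353, 285 and 344 in cNK. The log2 fold change was 3.49 (SE 0.32, adjusted p = 0.000298 by edgeR), with a 95% interval of 6.44-fold to 19.7-fold. Of the 11690 tested rows 160 rose more, but Inpp4b met the filter only through DN NK. Its rank and adjusted p among these rows thus rest partly on its being high there. Without a filter edgeR gave 3.43 (SE 0.34, adjusted p = 0.00135). On the log2(FPKM + 1) scale, which compresses low values, limma gave 1.54 (adjusted p = 0.000554). Without DN NK 2 the edgeR value was 3.74. In the same DN NK libraries the ILC3 receptor gene Il23r stood at 1.88, 0.967 and 1.57 FPKM and the residency gene Cxcr6 at 2.78, 2.80 and 3.63 FPKM.

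Inpp4a, the paralogue at 37299865 to 37410736 of chromosome 1, plus strand, did not pass. It had 2.71, 3.67 and 3.87 FPKM in DN NK, against 2.92, 2.34 and 3.23 FPKM in cNK, with overlapping groups and a CV of 18.1% in DN NK and 16.1% in cNK. The log2 fold change of 0.33 (SE 0.17, adjusted p = 0.134 by edgeR) had a 95% interval from -0.08 to 0.74, so the data leave room for a rise of up to 1.67-fold. It passed without DN NK 1 (0.46, adjusted p = 0.0318) and with DESeq2 (0.34, adjusted p = 0.0399). Inpp4b made up 53.7, 30.9 and 46.4% of the summed FPKM of both 4-phosphatases in DN NK against 8.20, 8.53 and 7.73% in cNK (exact permutation p = 0.10, the smallest possible, adjusted p = 0.133).

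**Figure D3:**
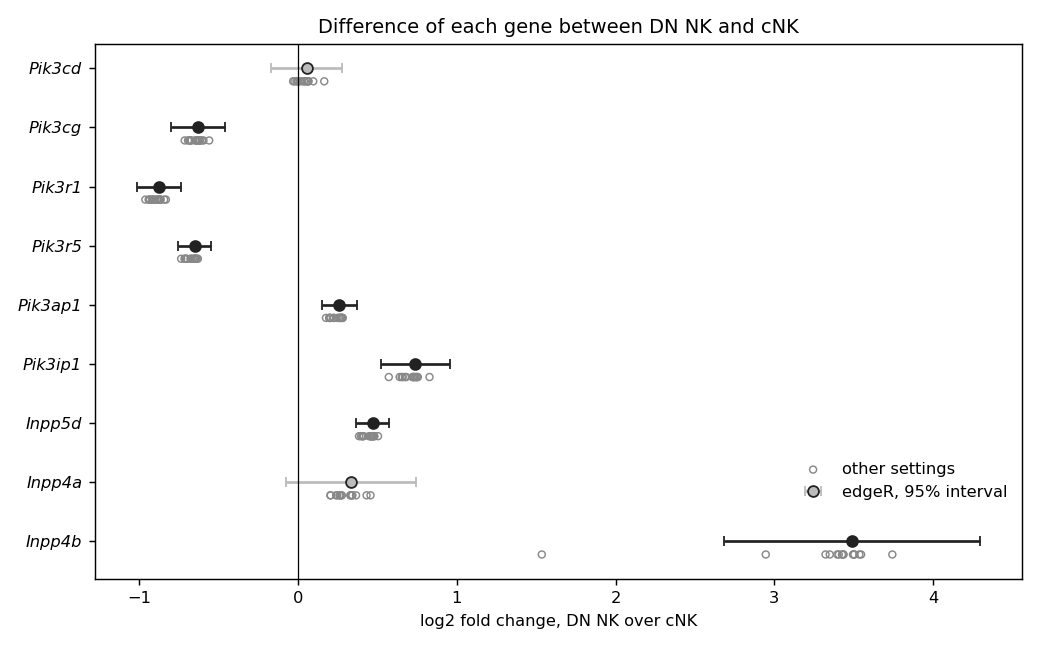
Log2 fold change (DN NK over cNK) of the 9 genes by edgeR with 95% intervals (filled black where the adjusted p is under 0.05, grey where it is not), and below each the values under the other settings and left-out libraries as open circles. The interval crosses 0 for Pik3cd and Inpp4a, and the one open circle far left of the others for Inpp4b, at 1.54, is limma on log2(FPKM + 1).

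Seen as a set, the order of levels differed between the groups. In DN NK it ran Pik3cd, Pik3ap1, Pik3r5, Inpp5d, Pik3r1, Pik3ip1, Pik3cg, Inpp4a and Inpp4b, and only the ranges of the last pair overlapped. In cNK it ran Pik3cd, Pik3r5, Pik3r1, Pik3ap1, Inpp5d, Pik3cg, Pik3ip1, Inpp4a and Inpp4b, where Pik3cd overlapped Pik3r5, and Pik3r1 overlapped Pik3ap1. Pik3r1 thus held place 5 in DN NK and place 3 in cNK. By the root mean square difference of log2(FPKM + 1), centred on each gene's mean over the 6 libraries, Pik3cg and Pik3r5, whose products form 1 enzyme, were nearest to each other at 0.101, and Pik3ap1 and Inpp5d at 0.114. Pik3r1, whose product is not part of that enzyme, was also nearest to Pik3r5, at 0.124. The measure takes in the difference between the groups. Inpp4b was farthest from any other member, at 0.548 from Pik3ip1. In the deposited KEGG labels, 5 of the 9 genes carry the phosphatidylinositol signalling term and 5 the PI3K-Akt term, with Pik3cd and Pik3r1 in both and Pik3ip1 in neither.

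The other genes of the pathway were taken from 5 lists. Over all tested rows 30.8% were higher and 30.9% lower, with a median log2 fold change of -0.02, the background for each list. Among 15 tested of 20 other PI3K subunit and adaptor genes, 8 were higher, 3 lower and 4 not past. Besides Pik3r6, the higher genes included Pik3c2a (1.90-fold), a class II PI3K. Lower were the scaffold genes Gab3, at 7.30 ± 0.373 FPKM in DN NK and 12.7 ± 0.944 FPKM in cNK (1.67-fold), Gab2 (1.52-fold) and Pik3cb (1.09-fold). The list's median log2 fold change was 0.37. With upper quartile scaling 6 rather than 3 were lower. Pik3cb, at an adjusted p of 0.0373 by edgeR, was not past the threshold in 9 of 16 alternatives, namely DESeq2, RLE factors, the replicate block and each of the 6 left-out libraries, with adjusted p between 0.00357 and 0.112 over all 16.

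Other phosphoinositide phosphatases gave 10 higher, 6 lower and 6 not past among 22 tested of 28, with a median of 0.12. Synj2, a synaptojanin that removes the 5-phosphate, rose 10.1-fold to 3.84 ± 0.616 FPKM in DN NK, against 0.394 ± 0.0965 FPKM in cNK (adjusted p = 3.09e-05 by edgeR), and its row met the filter only through DN NK. Inpp5f, which reached 1 FPKM in all 3 DN NK libraries and in 1 cNK library, rose 2.23-fold, and Mtmr14 rose 1.99-fold. Sacm1l, Mtmr9 and Fig4 fell 1.53-fold, 1.47-fold and 1.44-fold. Among 17 tested of 18 phosphoinositide and inositol phosphate kinases outside PI3K, 8 were higher, 2 lower and 7 not past, with a median of 0.19. Pip5k1b, one of the kinases that make the substrate of class I PI3K, rose 2.24-fold to 2.17 ± 0.173 FPKM in DN NK, against 1.01 ± 0.0812 FPKM in cNK. Pi4k2a and Ipmk rose 1.72-fold and 1.60-fold, and Pip4k2b and Ip6k1 fell 1.34-fold and 1.24-fold.

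Downstream, the Akt and mTOR list gave 6 higher, 6 lower and 13 not past among 25 tested of 28, with a median of 0.03. Rictor, the defining subunit of the mTOR complex that phosphorylates Akt, rose 2.40-fold to 30.2 ± 1.42 FPKM in DN NK, against 13.1 ± 0.848 FPKM in cNK (adjusted p = 2.11e-06 by edgeR). Tsc1, a brake on mTOR, and Phlpp1, an Akt phosphatase, rose 1.49-fold and 1.38-fold. Sgk1, which encodes a PI3K-dependent kinase related to Akt, fell 3.18-fold to 12.9 ± 0.184 FPKM in DN NK, against 42.7 ± 2.38 FPKM in cNK (adjusted p = 2.19e-07 by edgeR). The translation repressor genes Eif4ebp1 and Eif4ebp2 fell 2.03-fold and 1.38-fold, the Eif4ebp1 row having met the filter only through cNK, with 0.674 to 0.734 FPKM in DN NK and 1.36 to 1.61 FPKM in cNK. Akt1 fell by 0.27 on the log2 scale (adjusted p = 0.00297 by edgeR) and Mtor rose by 0.29 (adjusted p = 0.00152).

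Among PIP3-binding signalling proteins 12 were higher, 7 lower and 5 not past of 24 tested of 29, with a median of 0.10. Tec, a kinase gene, rose 2.92-fold to 29.5 ± 3.77 FPKM in DN NK, against 10.5 ± 0.0550 FPKM in cNK (adjusted p = 7.52e-06 by edgeR). Cyth3, an exchange factor for Arf proteins, rose 4.53-fold. Skap2, Skap1 and Cyth4 fell 2.01-fold, 1.42-fold and 1.39-fold. The shares of the 5 lists past the test ran between 48.0% for Akt and mTOR and 79.2% for the PIP3-binding proteins, around the 61.7% of all tested rows.

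**Figure D4:**
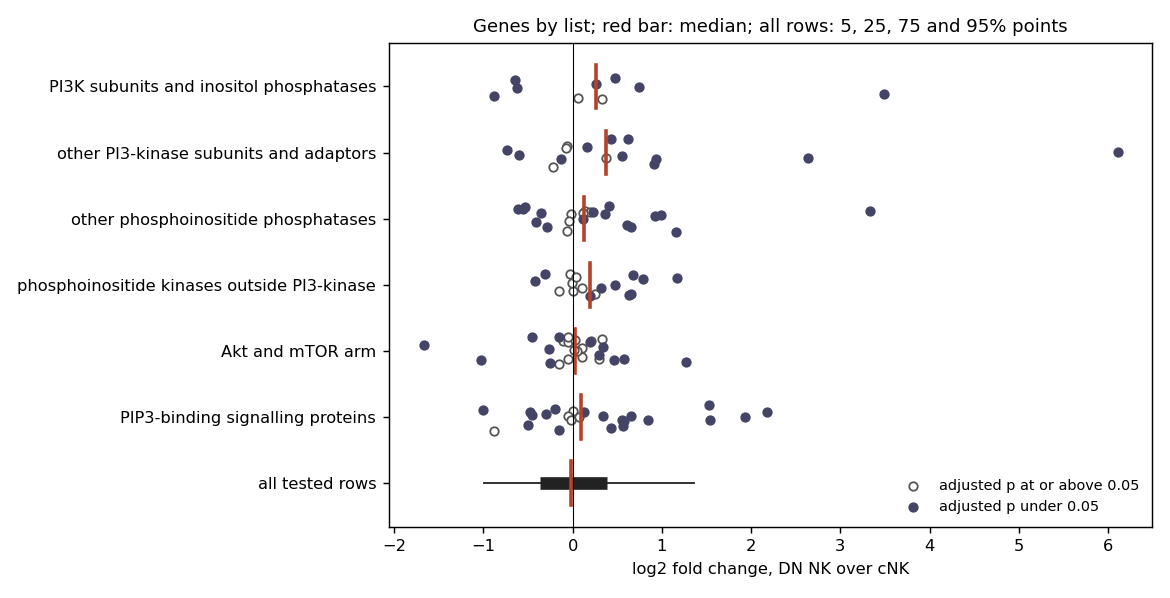
Log2 fold change (DN NK over cNK) of the tested genes of the 9-gene set and the 5 pathway lists, one point per gene, filled where the adjusted p is under 0.05, with the median of each list in red. The bottom row gives all 11690 tested rows, whose 25 and 75% points are -0.36 and 0.39 and whose 5 and 95% points are -0.99 and 1.36; Inpp4b, Pik3r6 and Synj2 are among the points to the right of it and Sgk1 and Eif4ebp1 among those to the left. Inpp4b, Pik3r6 and Synj2 met the filter only through DN NK, and Eif4ebp1 only through cNK.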

How the data were processed

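Poly(A) RNA was sequenced from unstranded TruSeq v2 libraries, per the labels' protocols. The submitters' processing notes list HISAT, StringTie and edgeR, and GRCm38 (mm10), with versions and settings not given in the sources used here. Per the file headers, the authors deposited an FPKM value and a count per gene row and library. The deposited counts are whole, but in rows with 1 listed transcript 89.3 to 91.3% of the values up to 30 can be computed from the FPKM value, the transcript's length and 1 factor per library after rounding up, so they were treated as estimated counts derived from coverage, with 1 read pair worth about 3.71 to 3.75 of them. Totals ran from 79798234 to 81437724 in DN NK and from 84270567 to 89526647 in cNK.

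Tested were rows that reached 1 FPKM in 3 or more of the 6 libraries (11690 rows), with edgeR 4.0.16 in R 4.3.3 (TMM, robust quasi-likelihood, group as the only term, 2-sided, Benjamini-Hochberg over all tested rows, threshold 0.05). The SE is the log2 fold change divided by the square root of F. Alternatives used DESeq2 1.42.0, limma 3.58.1, other scaling and filters, and left-out libraries; scripts were tested on simulated data. The members and lists were chosen with earlier results of these data known. Named beside the members were up to 3 genes per list and direction with the largest change past the threshold, the genes of the shares, Akt1, Akt2 and Mtor, though not every gene this covers is reported here. Il23r, Cxcr6, Cd3e, Pax5 and the other markers given by value were chosen after their values were seen. Promoter windows are RefSeq's. No 2 libraries of a group agreed within sampling noise.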

Additional observations from a re-analysis of the deposited data

How the results depend on the processing

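Of the 9 genes, the 7 past the threshold kept their direction and their call under every alternative that tested them, with a log2 fold change of -0.96 to -0.83 for Pik3r1, -0.74 to -0.63 for Pik3r5, -0.71 to -0.56 for Pik3cg, 0.18 to 0.28 for Pik3ap1, 0.38 to 0.50 for Inpp5d, 0.57 to 0.83 for Pik3ip1 and 1.54 to 3.74 for Inpp4b; Inpp4a and Inpp4b could not be tested with a mean of at least 5 FPKM. Pik3cd, not past in any, turned negative with filterByExpr (-0.0022), without a filter (-0.0099), with upper quartile factors (-0.031) and without cNK replicate 3 (-0.023), in a range of -0.023 to 0.17 over left-out libraries. Inpp4a passed with DESeq2 (0.34) and without DN NK replicate 1, in a range of 0.21 to 0.46 over left-out libraries. With a mean of at least 5 FPKM, where fewer rows are tested, 2278 rows were higher and 2336 lower, and 4 other PI3K subunits and adaptors, 4 other phosphatases and 5 other kinases were higher. With upper quartile factors 6 other PI3K genes were lower. Same-numbered libraries deviated together only weakly (correlations of 0.11, 0.09 and 0.15, each library nearest its own number, a hint from the data and not the design). With the replicate number as a block 3585 rows were higher and 3637 lower, against 3602 and 3613 without it; no call among the 9 genes changed, with Inpp4a at adjusted p = 0.156 by edgeR. The shares kept their direction under every alternative run. With 3 libraries a group, exact tests cannot go below p = 0.10.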

Other observations

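The balance between partners was also set out as a ratio of levels per library. Summed FPKM of the class IA regulatory genes was 0.371, 0.393 and 0.433 of that of the class IA catalytic genes in DN NK libraries 1, 2 and 3, against 0.748, 0.618 and 0.839 in cNK. The groups did not overlap (exact permutation p = 0.10, the smallest possible, adjusted p = 0.133 over the 4 ratios computed). For class IB, Pik3r5 and Pik3r6 together stood at 7.13 ± 0.325 times the FPKM of Pik3cg in DN NK and 7.09 ± 0.771 times in cNK (SD, n = 3 each), with overlapping groups and an exact permutation p of 1. These ratios were chosen after the values were seen and describe RNA, not protein.

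Akt2 varied widely within groups. It was at 17.7, 10.2 and 11.2 FPKM in DN NK and 11.3, 20.2 and 11.1 FPKM in cNK, a CV of 31.4% in DN NK and 36.6% in cNK, while Akt1 had 7.66% in DN NK and 2.63% in cNK. The high libraries were DN NK 1 and cNK 2. Of all libraries cNK 2 was also highest for Pik3cd and Pik3cg, whereas DN NK 1 was lowest for Pik3cg. Among the cNK libraries cNK 2 was highest for Pik3ip1 too, but lowest for Pik3r1, Pik3r5, Pik3ap1, Inpp4a and Inpp4b.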
